A study of Mus musculus with 20 samples.

Results

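Collagen transcripts were described in subcutaneous MC38 tumours of mice. MC38 is a line of mouse colon adenocarcinoma. The collagen genes were all rows of the deposited expression table whose symbol is Col, a number, the letter a and a number, which gave 44 of 23402 rows. The 20 libraries were made from whole tumour tissue with a stranded total RNA kit. Tumours given vehicle made up the Control group (10 libraries), and tumours given ATBx around the tumour made up the P.T.ATBx group (10 libraries). The abbreviation ATBx usually stands for antibiotic treatment. The labels give no agent, dose or schedule, and no strain, sex or age of the mice. Both groups carry the same tumour line. Nothing in the labels ties a library to a separate mouse. The p-values therefore rest on the spread among these samples alone, some of which may be technical. Values are FPKM (fragment counts corrected for gene length and library size), so levels of different genes can be set side by side per length. Read totals are unknown. Fewer cells of a type and less RNA per cell cannot be told apart in bulk tissue.

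Collagens are extracellular proteins built from 3 polypeptide chains that wind into a triple helix, in which glycine recurs at a regular spacing. Fibrillar collagens (types I, II, III, V, XI, XXIV and XXVII) assemble into the load-bearing fibres of connective tissue, and types V and XI sit within larger fibres and limit their diameter. Type IV forms the sheet of basement membranes, the thin matrix under epithelia and around vessels, where types XV and XVIII are also found and which type VII anchors to the tissue below. Type VI makes beaded microfilaments, and types VIII and X make hexagonal lattices. These are grouped here as network collagens, together with types XXVI and XXVIII, whose assembly is less well known. FACIT collagens (types IX, XII, XIV, XVI and others) lie on the surface of fibrils, and types XIII, XVII, XXIII and XXV span the cell membrane. In tumours most fibrillar collagen is made by fibroblasts, and type IV is made by endothelial cells, pericytes and fibroblasts.

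The gene structure of the types differs. In the GENCODE M21 models, 305 of the 649 coding exons of the 11 fibrillar genes were 54 bases long (47.0%), a length that encodes a whole number of glycine-led triplets. The share was 25.2% in the FACIT genes, 8.86% in the membrane-spanning genes, 7.01% in the network genes and 4.44% in the basement membrane genes. Over the coding exons of all genes it was 0.673%. Coding exons with a length divisible by 9, the bases of 1 triplet, made up 82.4% in the fibrillar genes, against 14.5% over all genes. The other types were also above that share, with 69.0% in the membrane-spanning, 53.0% in the FACIT, 48.7% in the basement membrane and 46.1% in the network genes.

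Sequences before the start of 4 genes are shown because these genes carry the results: Col3a1 and Col1a2 are main fibrillar transcripts of the tumours, and Col11a1 and Col4a5 had the smallest p-values between the groups. They come from RefSeq (GRCm38.p6), all on the plus strand and 5′ to 3′, and end at the base before the annotated gene start. Capitals mark CCAAT (or ATTGG on the other strand), GGGCGG (or CCGCCC) and TATAAA (or TTTATA).
Col3a1, chr1:45311288-45311537: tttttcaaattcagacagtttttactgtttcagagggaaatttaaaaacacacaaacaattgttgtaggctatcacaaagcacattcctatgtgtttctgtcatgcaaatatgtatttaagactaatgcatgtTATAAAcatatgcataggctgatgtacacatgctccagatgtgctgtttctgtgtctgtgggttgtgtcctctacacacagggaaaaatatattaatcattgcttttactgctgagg
Col1a2, chr6:4505368-4505617: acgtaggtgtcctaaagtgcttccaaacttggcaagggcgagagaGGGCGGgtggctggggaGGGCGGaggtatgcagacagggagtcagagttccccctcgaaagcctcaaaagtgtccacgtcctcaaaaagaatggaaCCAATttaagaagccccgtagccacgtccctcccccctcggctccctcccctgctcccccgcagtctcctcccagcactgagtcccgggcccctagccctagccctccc
Col11a1, chr3:114030290-114030478: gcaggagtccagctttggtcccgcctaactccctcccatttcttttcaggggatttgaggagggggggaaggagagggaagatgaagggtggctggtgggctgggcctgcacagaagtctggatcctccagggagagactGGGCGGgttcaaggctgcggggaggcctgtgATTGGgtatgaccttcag
Col4a5, chrX:141475169-141475369: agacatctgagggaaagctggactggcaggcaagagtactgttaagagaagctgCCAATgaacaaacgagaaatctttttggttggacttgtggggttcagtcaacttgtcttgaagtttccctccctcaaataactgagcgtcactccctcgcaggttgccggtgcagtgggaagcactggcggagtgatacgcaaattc
The Col3a1 stretch held 1 TATAAA and neither other motif. The Col1a2 stretch held 2 copies of GGGCGG and 1 CCAAT. The Col11a1 stretch, of 189 bases, had 1 GGGCGG and 1 ATTGG, and the Col4a5 stretch, of 201 bases, had 1 CCAAT. The other stretches were 250 bases long. Windows of 300 bases around the start were found for 35 of the 44 genes (38 windows). GGGCGG, read on both strands, was in 60.5% of these, beside 35.7% of 32851 windows of all genes. CCAAT was in 34.2% beside 37.4%, and TATAAA in 13.2% beside 13.6%. Counts in the windows exceeded those in the stretches shown for Col1a2 (2 CCAAT), Col11a1 (2 GGGCGG) and Col4a5 (1 GGGCGG), with both strands read. No motif contains another. These are matches of letters, and binding was not measured.

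Libraries differed in composition within both groups. Summed FPKM ran from 556770 to 752782, and the 4 highest libraries were Control 1, P.T.ATBx 1, P.T.ATBx 4 and Control 3. Control 1 (3433 FPKM), P.T.ATBx 1 (3501 FPKM) and P.T.ATBx 4 (3947 FPKM) had the lowest summed collagen level. The RNAs Rpph1 and Rmrp, components of RNase P and RNase MRP, took 7.75% to 20.5% of summed FPKM, most in Control 1. The relative depth, read from the spacing of low values, ran from 0.854 to 1.24. Control 3 stood apart by its makeup: the summed level of 10 adipocyte markers was 3240 FPKM there, while the group medians were 427 in Control and 329 in P.T.ATBx and the highest P.T.ATBx library had 808. Its summed level of 10 epithelial markers, 181 FPKM, was also the highest of all libraries. The labels name the cell type as cancer cell, but the fibroblast, pericyte and endothelial markers were all above the low-value filter. The intestinal epithelial markers Cdx2 and Vil1 had means under 0.1 FPKM. Markers of skeletal muscle summed to 1.03 to 93.4 FPKM in Control libraries and 1.41 to 58.0 FPKM in P.T.ATBx libraries, those of keratinocytes to 2.61 to 14.1 and 2.52 to 15.5 FPKM, and those of leukocytes to 244 to 351 and 234 to 379.665 FPKM. The tested adipocyte markers were negative in 10 of 10 (median log2 fold change -0.37) and the muscle markers positive in 9 of 9 (median 0.34), beside 48.5% of all rows negative. Their part in the collagen values was not tested beyond a fit with muscle, keratinocyte and adipocyte marker scores as covariates, in which Col11a1 had a log2 fold change of 0.48 (limma adjusted p = 0.0215). None of the tested genes of the adipocyte, muscle, keratinocyte, leukocyte and epithelial lists was called by limma. At an unadjusted p under 0.05, 1 leukocyte gene was higher and 1 epithelial gene lower, beside 7.51% and 6.08% of all rows.

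Collagen RNA in these tumours was mostly type III and type VI. All 44 genes summed to 4709.55 ± 593 FPKM in Control and 4638 ± 607 FPKM in P.T.ATBx (SD, n = 10 each), 0.797% and 0.783% of summed FPKM. Fibrillar genes made up 58.1% and 58.3% of the collagen sum, network genes 33.6% and 34.0%, basement membrane genes 6.48% and 5.95%, and FACIT genes 1.81% and 1.80%. Col3a1 alone held 42.4% ± 0.740 in Control and 43.0% ± 1.81 in P.T.ATBx. Of the 44 genes, 25 had a mean of at least 0.5 FPKM over the 20 libraries and were tested, among 12788 rows. These 25 passed on a mean over both groups. The other 19, all 4 membrane-spanning genes among them, had means up to 0.496 FPKM (Col13a1).

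**Figure D1:**
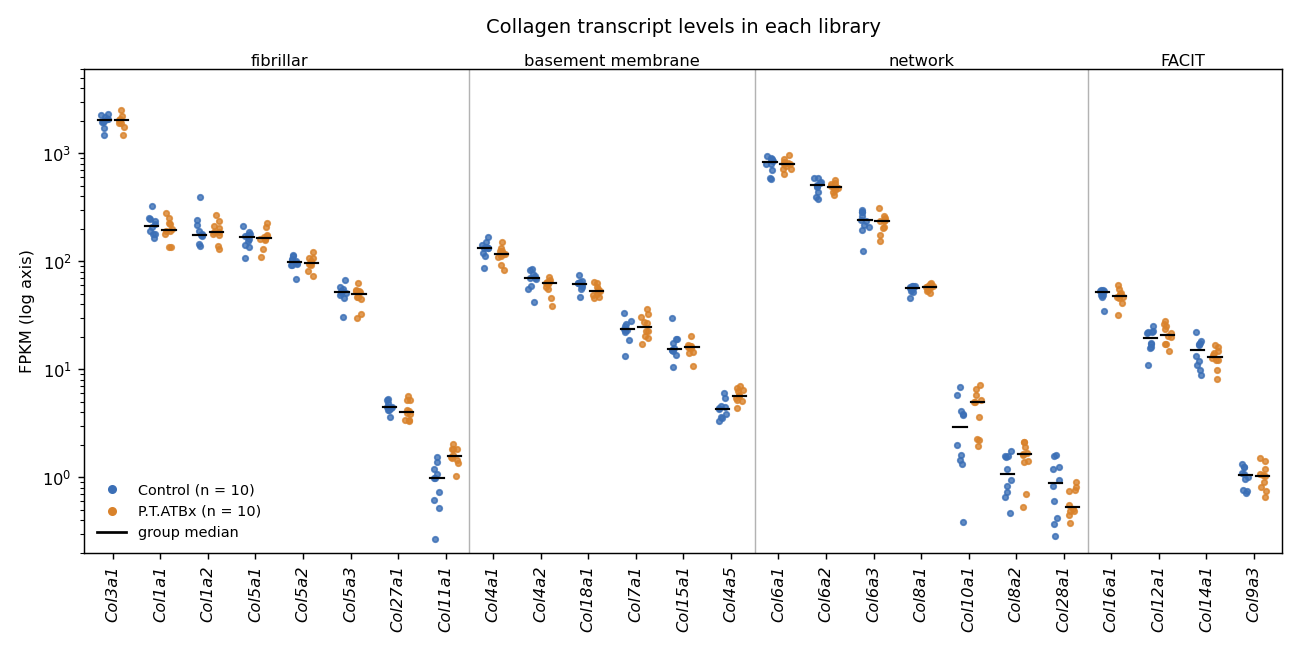
FPKM on a log axis of the 25 tested collagen genes, ordered by type and level, with 1 point per library (blue Control, orange P.T.ATBx, n = 10 each) and a black line at each group's median. Median levels run from under 1 FPKM in Col28a1 to about 2027 FPKM in Col3a1, and the groups overlap for every gene.

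**Figure D2:**
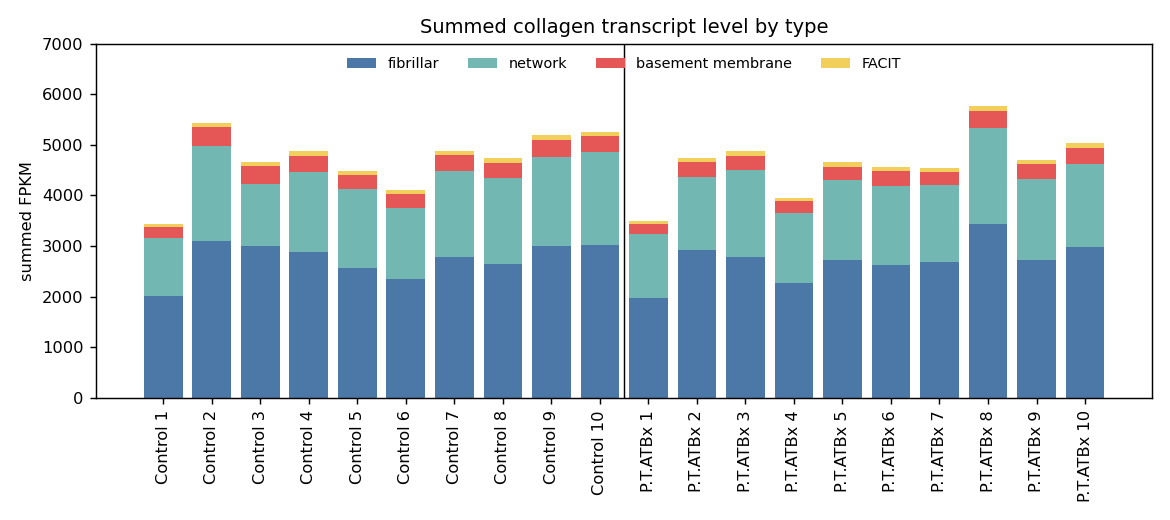
Summed FPKM per library, stacked by collagen type, with Control on the left of the line and P.T.ATBx on the right; the membrane-spanning genes, near 1 FPKM, are not drawn. Control 1 and P.T.ATBx 1 have the lowest sums (3433 and 3501 FPKM) and the fibrillar and network types fill most of every bar.

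The comparison of P.T.ATBx with Control asks how the tumour's collagen RNA differed after local ATBx. By limma on log2(FPKM + 1) with Benjamini-Hochberg adjustment over all rows tested, Col11a1 rose and no other collagen gene passed the threshold. That is 1 of 25, beside 108 of 12788 rows over the whole table (0.845%), 59 higher (0.461%) and 49 lower (0.383%). At an unadjusted p under 0.05 there were 3 of 25, beside 13.6% of all rows, so the share was near that of the table. Col11a1 and Col4a5 had higher values (2 of 25, beside 7.51% of all rows) and Col18a1 lower ones (1 of 25, beside 6.08%). The median log2 fold change of the 25 was -0.02, beside 0.00 over all rows, and 15 of 25 were negative beside 48.5%. The groups did not separate completely for any of the 25, beside 0.0704% of rows separated higher and 0.0626% lower.

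For the 18 genes with a mean of at least 10 FPKM, the 95% interval of the fold change lay inside 1.5-fold in either direction. Near 1 FPKM the added pseudocount shrinks fold changes, so the intervals of the 7 lower genes do not bound the fold change of FPKM itself: the medians of Col28a1, for example, were 0.887 and 0.528 FPKM. The 18 higher genes had log2 fold changes from -0.20 to 0.16, and the 7 lower ones from -0.21 to 0.51.

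**Figure D3:**
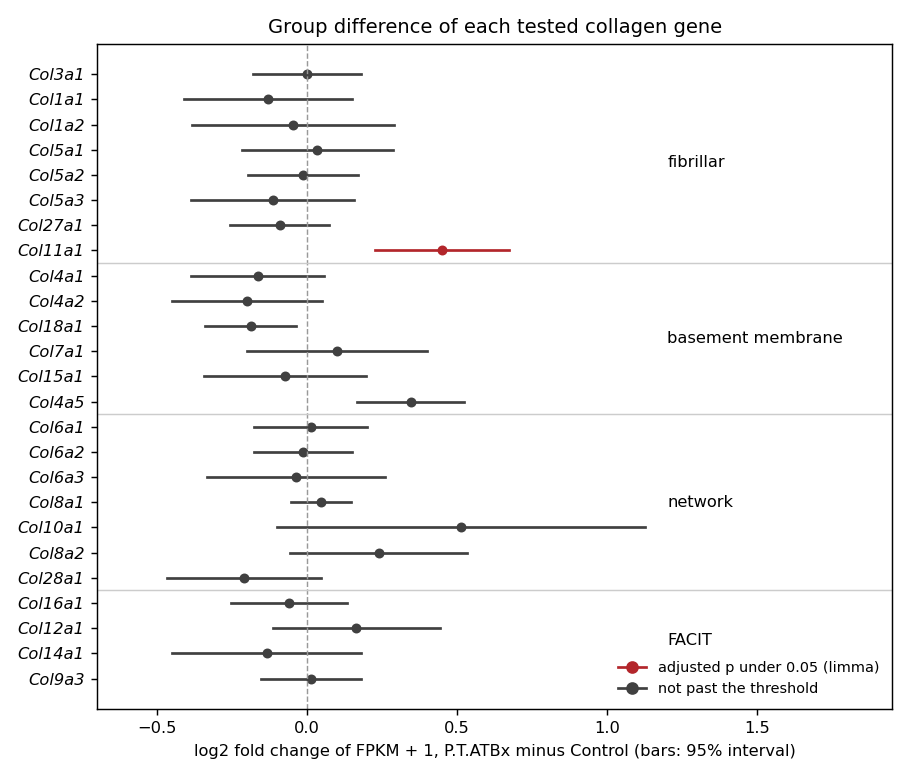
Log2 fold change of FPKM + 1, P.T.ATBx minus Control, for the 25 tested genes grouped by type, with points at the estimate and bars for the 95% interval. Col11a1 (0.45) is the gene past the adjusted threshold, Col4a5 (0.35) and Col18a1 (-0.19) also have intervals that leave out 0, and Col10a1 has the widest interval.

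Col11a1, a chain of type XI collagen that joins fibrils with type V, was the only called collagen gene (chr3:114030479-114220756). In Control its level was lowest at 0.269 FPKM (Control 3), with a median of 0.990 and a highest of 1.55 FPKM (Control 2). In P.T.ATBx the lowest was 1.03, the median 1.57 and the highest 2.03 FPKM. Every P.T.ATBx library was above the Control median and 5 were above the highest Control library, though the groups overlapped. The means were 0.933 ± 0.400 and 1.60 ± 0.287 FPKM (SD, n = 10 each). The log2 fold change was 0.45 (SE 0.11, 95% interval 0.22 to 0.67, limma adjusted p = 0.0471). The pseudocount of 1 shrinks this value at such low levels: with a pseudocount of 0.1 the log2 fold change was 0.82 (SE 0.21, adjusted p = 0.0640). This call sits near the threshold. Without Control 3 the Control mean was 1.01 ± 0.345 FPKM (n = 9), and the log2 fold change was 0.38 (adjusted p = 0.0527). It was called in 4 of the 20 fits that left out 1 library, with adjusted p between 0.0159 and 0.0918 over them; the 4 left out were Control 2, Control 9, Control 10 and P.T.ATBx 6. The call was also lost with a pseudocount of 0.1, with no filter, on the TPM scale and without the 4 libraries of highest summed FPKM (adjusted p from 0.0640 to 0.122). The summed level of the markers of cartilage, where type XI is best known, ran from 12.9 to 18.3 FPKM in Control and from 14.8 to 21.0 FPKM in P.T.ATBx. Of the 7 in the table, 5 (Acan, Matn1, Matn3, Hapln1 and Chad) had means under 0.1 FPKM. Only 1 of the 7 passed the filter, so this sum came mostly from 1 gene. Col11a2, the partner chain gene of Col11a1, was at 0.265 and 0.264 FPKM, below the filter.

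Col4a5, which encodes the alpha-5 chain of type IV collagen (chrX:141475370-141689236), had the second smallest p among the tested collagen genes. Control libraries had a lowest of 3.35, a median of 4.33 and a highest of 6.04 FPKM, and P.T.ATBx libraries 4.37, 5.71 and 6.95 FPKM. The Control median was exceeded in all 10 P.T.ATBx libraries, and 4 were above the highest Control library. The log2 fold change was 0.35 (SE 0.08, 95% interval 0.17 to 0.52), and the limma adjusted p of 0.0552 missed the threshold. In the 20 fits that left out 1 library Col4a5 was called in 3, with limma adjusted p from 0.0137 to 0.104. On the TPM scale its limma adjusted p was 0.227. Its neighbour Col4a6, with which it shares a head-to-head arrangement over a gap of 1274 bases, was below the filter at 0.207 and 0.173 FPKM.

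Col4a1 and Col4a2, the chains of the common type IV heterotrimer, had lower values in P.T.ATBx libraries but did not pass the test. Col4a1 had a Control lowest of 86.3, median of 132.856 and highest of 168 FPKM, and 83.6, 116 and 149.975 FPKM in P.T.ATBx. Col4a2 gave 42.0, 70.1 and 84.5 FPKM in Control and 38.7, 62.7 and 72.2 FPKM in P.T.ATBx. For each of these 2 genes 9 of 10 P.T.ATBx libraries were below the Control median, with log2 fold changes of -0.17 (95% interval -0.39 to 0.06, adjusted p = 0.529) and -0.20 (-0.45 to 0.05, adjusted p = 0.486) by limma. Col18a1, whose C-terminal fragment is endostatin, ran 47.2, 62.3 and 74.3 FPKM in Control and 45.3, 53.5 and 64.6 FPKM in P.T.ATBx. Its log2 fold change was -0.19 (95% interval -0.34 to -0.04), with values under the Control median in 8 of 10 P.T.ATBx libraries and a limma adjusted p of 0.240. Summed basement membrane FPKM averaged 306 ± 47.8 over Control and 277 ± 41.5 over P.T.ATBx. Col15a1 had 10.5, 15.5 and 29.7 FPKM in Control and 10.7, 16.2 and 20.4 FPKM in P.T.ATBx; Control 3 was the highest, and the log2 fold change was -0.08. Col7a1, the anchoring fibril collagen, had means of 23.7 and 25.5 FPKM (log2 fold change 0.10).

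Set against Col4a1 in the same library, Col4a5 separated the groups. In Control the ratio of Col4a5 to Col4a1 ran from 0.0236 to 0.0429, and in P.T.ATBx from 0.0432 to 0.0584. Over all rows, 7 of 12788 (0.0547%) had a ratio to Col4a1 that was higher in every P.T.ATBx library, and Col4a5 was 1 of them. The ratio was lower in every P.T.ATBx library for 0 of the 25 collagen genes, beside 0.00782% of rows. This ratio was chosen after its values were seen, so it is given with no test. Endothelial markers summed to 105 to 162 FPKM in Control and 114 to 143 FPKM in P.T.ATBx. Pericyte markers summed to 172 to 223 and 180 to 217 FPKM. In either list 0 of 10 were called by limma. At an unadjusted p under 0.05, 1 endothelial gene was lower and 1 pericyte gene higher, beside 6.08% and 7.51% of all rows. The part of endothelial cells and pericytes in the type IV values was not tested.

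**Figure D4:**
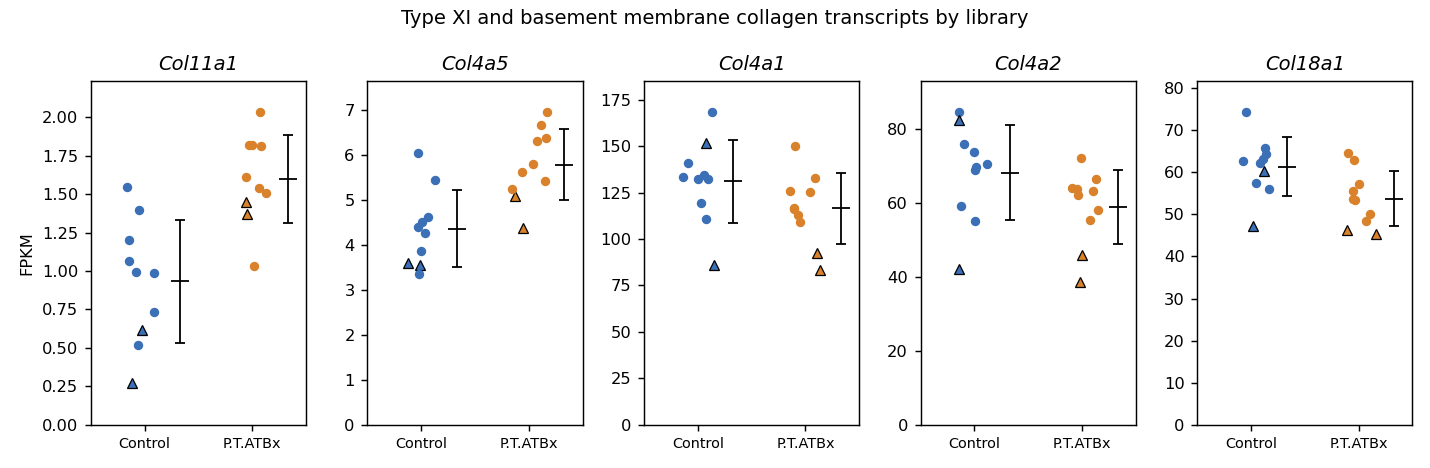
FPKM of Col11a1 and of 4 basement membrane collagens in each library (blue Control, orange P.T.ATBx), with triangles for the 4 libraries of highest summed FPKM and black bars for mean ± SD (n = 10). Col11a1 and Col4a5 lie higher in P.T.ATBx with overlap, and Col4a1, Col4a2 and Col18a1 lie lower with overlap.

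The other fibrillar genes showed no difference past the threshold. Col3a1, the main fibrillar transcript, had a lowest of 1489, a median of 2027 and a highest of 2293 FPKM in Control, and 1469, 2013 and 2527 FPKM in P.T.ATBx. The group means were both 1995 FPKM (log2 fold change 0.00, 95% interval -0.18 to 0.18). Col1a1 and Col1a2 encode the 2 chains of type I, the commonest collagen of connective tissue. Col1a1 had 164, 214 and 326 FPKM in Control and 136, 196 and 282 FPKM in P.T.ATBx (log2 fold change -0.13, 95% interval -0.41 to 0.15, adjusted p = 0.720 by limma). Col1a2 had 139.537, 177 and 395 FPKM in Control and 129.954, 187 and 271 FPKM in P.T.ATBx, with Control 3 the highest. Without Control 3 its Control mean moved from 203 to 182 FPKM. Col5a1, a chain of the fibril-initiating type V, gave 108, 166 and 213 FPKM in Control and 109, 164 and 226 FPKM in P.T.ATBx (log2 fold change 0.03). Its partner chains Col5a2 (98.0 and 97.1 FPKM) and Col5a3 (51.5 and 47.7 FPKM) had log2 fold changes of -0.01 and -0.12. Col27a1, a fibrillar chain of cartilage, had means of 4.53 and 4.22 FPKM, and Col24a1 was below the filter at 0.334 and 0.321 FPKM.

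Of the 10 fibroblast markers 9 had negative log2 fold changes, beside 48.5% of all rows. At an unadjusted p under 0.05, 4 were lower and 0 higher (Dcn, Thy1, Pi16 and Cd34), beside 6.08% of all rows lower. Past the adjusted threshold 1 of the 10 fell, beside 0.383% of all rows called lower. This was Dcn, which encodes decorin, a proteoglycan that binds collagen fibrils. The means of Dcn were 672 ± 40.1 and 543 ± 39.5 FPKM (SD, n = 10 each), and its log2 fold change was -0.31 (SE 0.05, limma adjusted p = 0.00125). Pi16, a marker of adventitial fibroblasts, had a log2 fold change of -0.92 (limma adjusted p = 0.0853). The summed level of the 10 fibroblast markers ran from 1204 to 1409.87 FPKM in Control and from 1024 to 1268 FPKM in P.T.ATBx. The medians of this sum were 1324 and 1125 FPKM. Dcn alone made up a large part of it, and much of the group difference in the sum came from this 1 gene. The fibrillar sum was 2735 ± 349 and 2707 ± 395 FPKM. Whether fibroblast content bears on the collagen values was not tested.

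Network collagens were led by type VI, whose 3 main chains had group differences smaller than their SD within a group. Col6a1 had a lowest of 577, a median of 824 and a highest of 938 FPKM in Control, and 642, 789.614 and 957 FPKM in P.T.ATBx (log2 fold change 0.01, 95% interval -0.18 to 0.20). Col6a2 had means of 496 and 488 FPKM and Col6a3 of 236 and 228 FPKM. Col8a1, of the lattice around vessels, was the steadiest of the tested genes, with coefficients of variation of 7.73% in Control and 6.62% in P.T.ATBx.

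The network genes of low level that passed the filter, Col10a1, Col8a2 and Col28a1, did not pass the test. Col10a1, the collagen of hypertrophic cartilage, ran 0.383, 2.90 and 6.79 FPKM in Control and 1.97, 4.99 and 7.17 FPKM in P.T.ATBx. Its log2 fold change was 0.51 with an interval of -0.10 to 1.12 (limma adjusted p = 0.465), the widest of the 25. Col8a2 ran 0.472, 1.07 and 1.74 FPKM in Control and 0.527, 1.63 and 2.14 FPKM in P.T.ATBx (log2 fold change 0.24). Col28a1 ran 0.287, 0.887 and 1.60 FPKM in Control and 0.377, 0.528 and 0.906 FPKM in P.T.ATBx (log2 fold change -0.21). Control 3 was the lowest library of Col10a1, Col8a2 and Col11a1 and the highest of Col28a1.

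Among FACIT genes, Col12a1 and Col14a1 encode collagens on the surface of type I fibrils. Col12a1 had 10.9, 19.6 and 25.2 FPKM in Control and 14.7, 20.9 and 27.8 FPKM in P.T.ATBx (log2 fold change 0.16, 95% interval -0.11 to 0.44). Col14a1 had 8.91, 15.0 and 22.3 FPKM in Control and 8.22, 13.1 and 16.8 FPKM in P.T.ATBx (log2 fold change -0.13, 95% interval -0.45 to 0.18). Neither passed the threshold. Col16a1 (49.6 and 47.8 FPKM) and Col9a3 (1.02 and 1.04 FPKM) had log2 fold changes of -0.06 and 0.01.

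Of the 19 genes below the filter, 15 were above 0 in at least 10 libraries and were compared by a two-sided permutation test, and 0 had an adjusted p under 0.05. At an unadjusted p under 0.05 there were 2 of 15. The permutation test was run on these 15 genes only, so there is no share over all rows to set beside that count. Col6a6 averaged 0.161 FPKM over Control and 0.0525 FPKM over P.T.ATBx (p = 0.00474, adjusted p = 0.0711), and Control 3 had the highest value, 0.587 FPKM. Col20a1 was at 0.0666 and 0.0998 FPKM (p = 0.0399, adjusted p = 0.294). The membrane-spanning genes Col13a1 (0.534 and 0.457 FPKM), Col23a1 (0.411 and 0.466 FPKM), Col17a1 (0.315 and 0.201 FPKM) and Col25a1 (0.0151 and 0.00958 FPKM) had adjusted p-values of 0.582 to 0.731 in the same test. Col17a1, a hemidesmosome component of keratinocytes, was highest in Control 3 (0.877 FPKM). Col2a1, Col4a3, Col26a1 and Col19a1 were above 0 in fewer libraries and were not tested.

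The spread of ratios between chains of 1 collagen type differed from pair to pair. Col4a1 to Col4a2 averaged 1.93 ± 0.0906 over Control and 1.98 ± 0.0914 over P.T.ATBx, and Col6a1 to Col6a2 was 1.59 ± 0.0544 and 1.62 ± 0.0488 (SD, n = 10 each). Col1a1 to Col1a2 varied more in Control, 1.13 ± 0.195 with a range of 0.825 (Control 3) to 1.43 (Control 7), than in P.T.ATBx, 1.05 ± 0.0420. Col6a1 to Col6a3 had 3.42 ± 0.556 in Control, from 2.77 (Control 3) to 4.75 (Control 1), and 3.52 ± 0.393 in P.T.ATBx. Differences in spread between groups or pairs were not tested.

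Across libraries within a group, 22 relations were computed over 11 pairs of transcripts, and 15 had an adjusted permutation p under 0.05 (6 in Control, 9 in P.T.ATBx) for Pearson's r, and 11 for Spearman's rho. Without the 2 libraries farthest from the median of the first transcript, 10 did (4 in Control, 6 in P.T.ATBx). Those lost were Col5a1 with Col5a2 in both groups (r from 0.872 to 0.777 and from 0.903 to 0.688), Col1a1 with Col1a2 and Col4a1 with Cdh5 in Control, and Col1a1 with Col3a1 and with Col12a1 in P.T.ATBx. Col1a1 with Col3a1 in Control passed then and not before. Col4a1 and Col4a2 gave r = 0.981 (rho = 0.952) in Control and 0.972 (rho = 0.988) in P.T.ATBx, each with an adjusted permutation p of 5.5e-05. Col6a1 and Col6a2 gave r = 0.985 and 0.980. Both pairs held without the 2 libraries farthest from the median, with r of 0.968 in each group for Col4a1 and 0.971 and 0.949 for Col6a1.

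Some relations of Col1a1 in Control depended on Control 3. Col1a1 and Col1a2 gave r = 0.822 (rho = 0.661) in Control, 0.416 without Control 1 and Control 3, and 0.592 without Control 3 alone; in P.T.ATBx r was 0.987 (rho = 0.952). Col1a1 and Col6a1 gave r = 0.00 in Control, 0.779 without Control 3, and 0.824 in P.T.ATBx. With Pdgfrb, a pericyte and fibroblast receptor, Col1a1 gave r = 0.0664 in Control, 0.775 without Control 3, and 0.724 in P.T.ATBx. With Serpinh1, the collagen chaperone, r was 0.384 for Control and 0.10 for P.T.ATBx, and neither passed. Col11a1 and Col4a5, a pair chosen after its values were seen, gave r = 0.901 in Control and 0.538 in P.T.ATBx. Both values of a point come from 1 library and share its scaling, and r values between groups were not compared by a test.

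**Figure D5:**
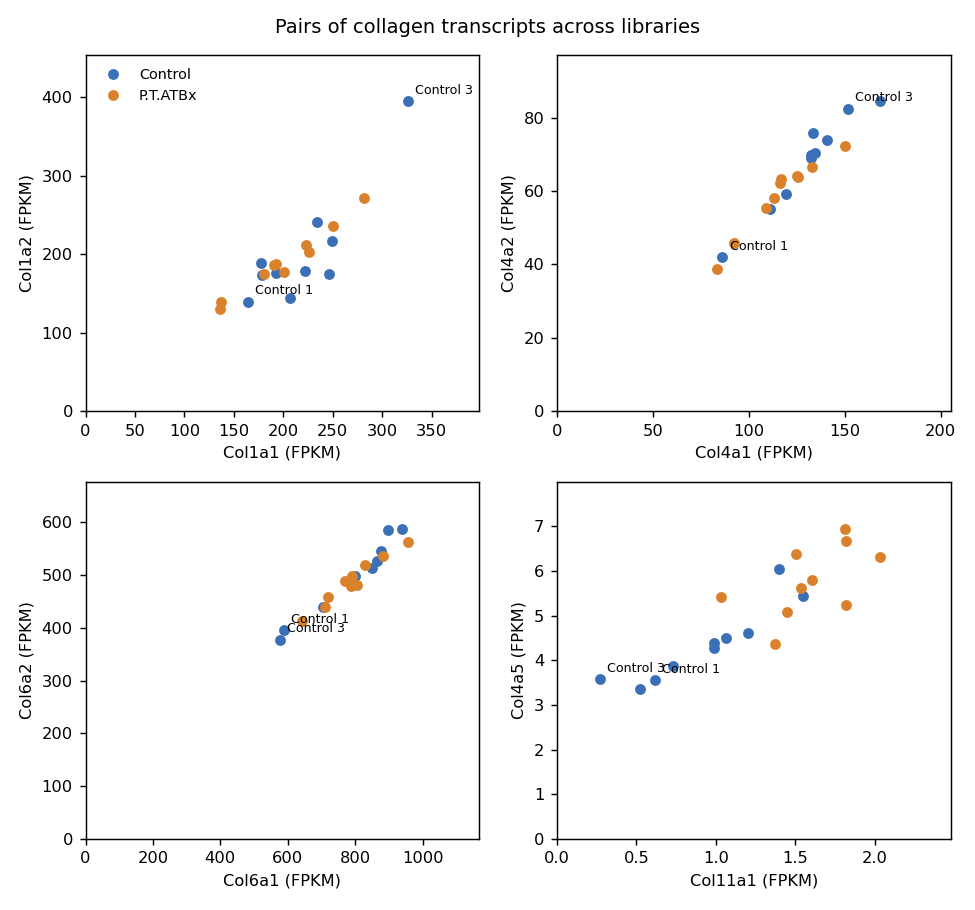
FPKM of 4 pairs of collagen transcripts, 1 point per library (blue Control, orange P.T.ATBx), with Control 1 and Control 3 named. Col4a1 with Col4a2 and Col6a1 with Col6a2 fall on narrow lines, and Control 3 lies apart at the top of the Col1a1 and Col1a2 panel (326 and 395 FPKM).

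Genes that fold, cut, crosslink, bind and degrade collagen were mostly not called either. Over all rows tested, 0.461% were called higher and 0.383% lower. At an unadjusted p under 0.05, 7.51% of all rows were higher and 6.08% lower. Among the 21 tested genes of chain folding and modification 0 were called by limma (3 higher and 1 lower at an unadjusted p under 0.05), and the median log2 fold change was 0.02. Crtap, which acts in proline 3-hydroxylation, had 65.9 ± 2.75 and 71.3 ± 2.97 FPKM (log2 fold change 0.11, adjusted p = 0.0913). Serpinh1 had 654 and 611 FPKM (log2 fold change -0.10), P4ha1, a prolyl 4-hydroxylase, 61.2 and 55.5 FPKM, P4ha2 25.4 and 21.3 FPKM, and Plod2, a lysyl hydroxylase, 62.1 and 62.5 FPKM. Fkbp10, a collagen-folding peptidyl-prolyl isomerase, had 130.285 and 139 FPKM (log2 fold change 0.09, adjusted p = 0.298), with all 10 P.T.ATBx libraries above the Control median, and Leprel2 had 29.6 and 32.2 FPKM. Sparc, a matricellular protein that binds collagen, had 837 and 864 FPKM. Of the 13 tested genes of processing and crosslinking 12 had lower values in P.T.ATBx, beside 48.5% of all rows with a negative log2 fold change. Of the 13, 0 were called (1 higher and 3 lower at an unadjusted p under 0.05), and the median log2 fold change was -0.12. Tgm2, a transglutaminase, had 82.1 ± 20.9 and 54.4 ± 14.4 FPKM (log2 fold change -0.59, adjusted p = 0.0853), and was under the Control median in all 10 P.T.ATBx libraries. Tll1, a relative of Bmp1, was the gene with higher values (1.21 and 1.65 FPKM, log2 fold change 0.26, adjusted p = 0.188), and Loxl4, a lysyl oxidase relative, had 1.30 and 1.04 FPKM (adjusted p = 0.184). Pcolce2 had 2.31 and 1.40 FPKM (log2 fold change -0.38, limma adjusted p = 0.357) and was under the Control median in all 10 P.T.ATBx libraries. Its highest Control library was Control 3 (4.83 FPKM). Lox, the lysyl oxidase, had 17.1 and 15.9 FPKM and Bmp1, which cuts procollagen, 50.9 and 50.2 FPKM.

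Of 9 tested collagen receptors 0 were called. At an unadjusted p under 0.05, 0 were higher and 1 lower, beside 7.51% and 6.08% of all rows. Ddr1, a receptor tyrosine kinase for collagen, had 11.1 ± 1.03 and 9.82 ± 0.591 FPKM (log2 fold change -0.16, adjusted p = 0.105). In P.T.ATBx it was under the Control median in all 10 libraries. Ddr2, its relative in mesenchymal cells, had 42.2 and 40.9 FPKM, and Itga11, an integrin chain of fibroblasts that binds fibrillar collagen, had 0.645 and 0.792 FPKM. Among 13 tested genes of collagen degradation 1 was called higher and 0 lower, beside 0.461% and 0.383% of all rows. At an unadjusted p under 0.05, 1 was higher and 2 lower. Of the 13, 9 had negative log2 fold changes (median -0.07), beside 48.5% of all rows. The called gene Mmp16, a membrane-bound metalloproteinase, had 6.00 ± 0.676 and 8.06 ± 0.600 FPKM (SD, n = 10 each). Its log2 fold change was 0.38 (SE 0.05, limma adjusted p = 0.000808), and in 9 of 10 P.T.ATBx libraries it was above the highest Control library. The call was lost on the TPM scale (adjusted p = 0.0512). Mmp14, its relative that activates other proteinases, had 249 and 251 FPKM (log2 fold change 0.02). Mmp9, a gelatinase, had 11.1 and 9.27 FPKM (adjusted p = 0.252), Timp1, a metalloproteinase inhibitor, 91.2 and 75.8 FPKM (adjusted p = 0.306), and Mmp13, a collagenase, 15.3 and 13.0 FPKM (adjusted p = 0.463). Of 10 basement membrane partners 0 were called (0 at an unadjusted p under 0.05); Nid1, which links laminin and type IV networks, had 77.5 and 69.5 FPKM (log2 fold change -0.15).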

How the data were processed

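RNA of 20 MC38 tumour libraries, 10 Control and 10 P.T.ATBx, was measured by stranded total RNA-seq, per the labels. The authors deposited FPKM per gene and library, with mm10 named as the build in the submitters' processing notes. The aligner, quantifier and annotation were not stated in the labels or the table, and a further scaling between libraries is possible. Values were analysed as log2(FPKM + 1), which understates changes of low genes. Rows with a mean of at least 0.5 FPKM were tested in limma 3.58.1 (R 4.3.3) with robust and trended moderation, group as the only term, and Benjamini-Hochberg adjustment over 12788 rows at 0.05. Members below the filter and correlations used permutation tests with 100000 resamples (SciPy 1.17.1), and each correlation was repeated without the 2 libraries farthest from the median. The fit was tested on simulated data. Coordinates and sequences are from RefSeq GRCm38.p6, and exons from GENCODE M21. The members, the 14 gene and marker lists and the alternatives were chosen with earlier results of these data known. Members named with their lowest, median and highest library were the 8 with the smallest p and 11 preset genes; of each other list up to 4 by p and 10 preset genes were named. Control samples were the comparison group, and shares of called genes were set beside those over all rows tested.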

Additional observations from a re-analysis of the deposited data

Results flagged for a closer look

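In 14 of 112 groups of 10 libraries (56 genes in each of the 2 groups), the highest or lowest library lay far from the rest. Chance flags about 1 in 20 groups where values within a group follow a normal distribution. Genes measured in the same libraries are not independent, so the count of flags can lie far from this rate. It was not tested against it. Control 1 was the low library in 11 of the 14 flagged groups: Col5a2 (68.7 FPKM), Col5a3 (30.8 FPKM), Col6a3 (124 FPKM), Col8a1 (45.3 FPKM), Col16a1 (34.9 FPKM), Ddr2 (28.9 FPKM), Lama4 (32.8 FPKM), Lamb1 (49.5 FPKM), Nid1 (51.4 FPKM), Plod1 (24.1 FPKM) and Plod2 (48.1 FPKM). This library also had the highest summed FPKM (752782) and the highest share of Rpph1 and Rmrp (20.5%). The part of library composition in these values was not tested.

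Control 3 was the high library for Col1a2 (395 FPKM, with the next at 241 FPKM) and the low one for Leprel2 (23.3 FPKM), which encodes a prolyl 3-hydroxylase. It had the highest adipocyte marker sum (3240 FPKM). P.T.ATBx 2 was the low library for Lair1, an inhibitory collagen receptor of leukocytes (9.24 FPKM).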

How the results depend on the processing

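The collagen count of 1 was 0 with a pseudocount of 0.1, with no filter, on the TPM scale and without the 4 libraries of highest summed FPKM, and 2 with quantile normalization or arrayWeights, where Col4a5 joined. Leaving out 1 library gave 0 to 2. Col11a1 had an adjusted p of 0.112 without the 4 libraries and 0.122 on the TPM scale, and Col4a5 had 0.0694 and 0.227. The count over all rows was 108 and became 49 on the TPM scale (20 higher, 29 lower), 306 with arrayWeights and 67 without the 4 libraries, and was lowest at 69 on leaving out P.T.ATBx 4 and highest at 193 on leaving out Control 1. Tissue covariates gave 60 higher and 70 lower. Over the pathway lists 1 call became 2 with quantile normalization, 0 on the TPM scale (Mmp16 adjusted p = 0.0512) and 3 with arrayWeights, and 1 to 2 when 1 library was left out.

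Some log2 fold changes changed sign, among them those of Col1a1 and Col14a1, each -0.13 in the main fit. Without the 4 libraries they were Col1a1 0.027, Col1a2 0.14, Col3a1 0.019, Col5a2 0.010, Col15a1 0.087, Col6a1 -0.038, Col14a1 0.030, Mmp14 -0.032 and Plod2 -0.016. With arrayWeights they were Col1a2 0.039, Col15a1 0.015, Col6a1 -0.019, Mmp14 -0.022 and Plod2 -0.023. With tissue covariates they were Col1a2 0.017, Col6a1 -0.023, Lox 0.011, Mmp14 -0.011 and Plod2 -0.0070. Quantile normalization gave Col3a1 0.028 and Col6a2 0.0039, and the TPM scale Col3a1 0.00081. Leaving out 1 library gave Col1a2 -0.11 to 0.066, Col3a1 -0.047 to 0.046, Col5a1 -0.028 to 0.098, Col5a2 -0.070 to 0.028, Col15a1 -0.14 to 0.015, Col6a1 -0.036 to 0.044, Col6a2 -0.057 to 0.014, Col6a3 -0.14 to 0.021, Col9a3 -0.023 to 0.043, Col16a1 -0.12 to 0.00100, Bmp1 -0.045 to 0.011, Mmp14 -0.018 to 0.041 and Plod2 -0.026 to 0.033. The cause was not tested.

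Whether the replicate numbers pair the libraries is not stated in the labels. Same-number correlations ran from -0.315 to 0.393 (5 of 10 over 0.1), and 3 Control and 4 P.T.ATBx libraries correlated best with their own number. These values do not settle a pairing. With the replicate block 124 rows and 1 collagen gene were called. In that fit the SE was 0.064 for Col4a1 and 0.065 for Col4a2, beside 0.105 and 0.119 in the main fit. Their limma adjusted p-values with the block were 0.232 and 0.151, and that of Col18a1 was 0.128. Leaving out the 4 libraries was added after seeing the data. Read depth is unknown, which limits what can be said of the 19 genes below the filter.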
